A study of Mus musculus with 16 samples.

Results

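In whole brain RNA of mice with a frameshift in Tecpr2, 7 genes were followed: Tecpr2 itself, its paralog Tecpr1, and the ATG8 genes Map1lc3a, Map1lc3b, Gabarap, Gabarapl1 and Gabarapl2, whose proteins TECPR2 binds. They were chosen by name, with earlier results of these data known. All 7 were found by gene symbol among 55404 genes of the table, and all 7 were among the 23244 genes with values high enough to be tested. The study compared 8 Tecpr2 ki/ki mice, homozygous for the L1152fs knock-in allele (L1152Yfs in the study's methods), with 8 wt/wt mice. All were males of 5 months on the C57BL/6J background. The allele was made in zygotes with Cas9 and a repair oligonucleotide. It lacks 1 T in a leucine codon and carries a silent change in the serine codon before it, and wt/wt mice carry neither change. The edit is in the germline, so that all cells of a ki/ki mouse have it, and whole brain RNA mixes neurons, glia, vessels and choroid plexus in 1 library per mouse.

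ATG8 proteins are small ubiquitin-like proteins that are attached to the lipid phosphatidylethanolamine on growing autophagosomes. Mammals have an LC3 and a GABARAP subfamily, and proteins with an LC3-interacting motif, among them cargo receptors and TECPR2, dock on both. TECPR2 also binds the tethering complex HOPS, which brings endosomes and autophagosomes together with lysosomes, and its loss in humans causes a hereditary sensory and autonomic neuropathy. TECPR1 shares the beta-propeller repeats of TECPR2 and binds the conjugate of ATG12 and ATG5 at lysosomes and autophagosomes.

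The stretch of Tecpr2 that the allele alters is shown because it is the designed difference between the genotypes. It runs from chr12:110947704-110947809 in GRCm38 on the plus strand, within exon 16 of 20. The first capitals mark codon 1152, and the last capitals mark the stop codon that is read once 1 T of that codon is lost.
Tecpr2, unedited: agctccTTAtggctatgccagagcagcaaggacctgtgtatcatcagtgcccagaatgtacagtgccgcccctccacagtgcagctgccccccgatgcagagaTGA

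In the unedited frame Tecpr2 has 1423 codons before its stop, and 80.9% of them precede codon 1152. Both changes of the allele fall in the first 9 letters of this stretch. The serine codon is the tcc before the capitals. A sequencing read from elsewhere in the gene is therefore the same for both alleles, and the value of Tecpr2 in ki/ki mice counts transcripts of the edited allele.

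The ends of the 5 ATG8 coding sequences are shown because the protease ATG4 cuts there. The glycine codon in capitals is the last one left in the mature protein and the one joined to the lipid. Each sequence runs from 7 codons before that glycine to the stop codon, taken from the GENCODE transcripts of GRCm38.
Map1lc3a: tacgcctcccaagaaaccttcGGCttctga
Map1lc3b: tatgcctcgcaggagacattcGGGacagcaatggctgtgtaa
Gabarap: tacagtgatgaaagcgtctatGGTctgtga
Gabarapl1: tacagtgatgaaagtgtctatGGAaaatga
Gabarapl2: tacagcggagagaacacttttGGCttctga

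The glycine is codon 120 in the LC3 genes and codon 116 in the GABARAP genes. It is followed by 5 codons in Map1lc3b and by 1 codon in each of the other 4 genes. The coding sequences of Map1lc3a and Map1lc3b were 74.7% identical, and those of Gabarap and Gabarapl1 74.9%. Gabarapl2 was 63.1% identical to Gabarap and 64.5% to Gabarapl1, and an LC3 gene matched a GABARAP gene at 50.6 to 55.2% of aligned bases.

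The values are linear normalized values per gene, rounded to whole numbers. They summed to between 11964284 and 12252324 per mouse. The steps among low values implied 9.23 to 15.39 megareads on genes per mouse, with a ki/ki range of 9.23 to 14.26 and a wt/wt range of 10.09 to 15.39 megareads. Defining markers of neurons, astrocytes, microglia, oligodendrocytes, endothelium, choroid plexus and blood were above 0 in all 16 mice. Of all 23244 tested genes, 31 (0.133%) were called at an adjusted p under 0.1 with limma and Benjamini-Hochberg adjustment, 9 of them lower in ki/ki (0.0387%) and 22 higher (0.0946%).

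Of the 7 genes, 1 was called. Tecpr2 was 3.21-fold lower in ki/ki mice, and Tecpr1 and the 5 ATG8 genes did not pass the test. The ki/ki values of Tecpr2 were 274 at the lowest, 298.5 at the median and 320 at the highest. The wt/wt values were 928, 968.5 and 1002. The genotypes did not overlap, which was the case for 20 of all tested genes (0.086%). Each ki/ki mouse kept between 28.4% and 33.2% of the wt/wt mean, with a mean of 31.2% ± 1.46 (SD, n = 8). The log2 difference on the scale of log2(value + 1) was −1.68 ± 0.036 (SE; limma, adjusted p = 2.16e-47), with a 95% confidence interval of −1.75 to −1.61. It was the largest difference in size among the 31 called genes, and no tested gene had a smaller p. The exact two-sided permutation test gave p = 0.000155, the smallest that the 12870 splits of 16 mice allow. Lower RNA per cell and fewer cells that express the gene cannot be told apart in bulk RNA.

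**Figure D1:**
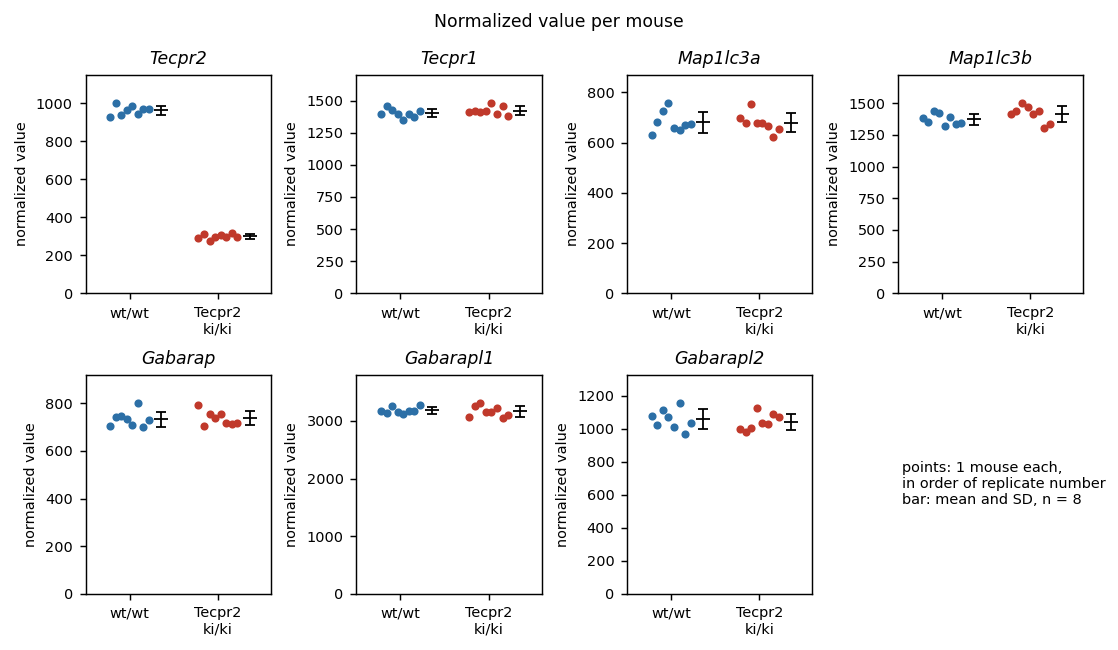
Normalized value (y axis, from 0, on a scale of its own for each gene) of each wt/wt mouse (blue) and Tecpr2 ki/ki mouse (red), with the mean and SD of 8 mice beside the points. Tecpr2 lies between 274 and 320 in ki/ki and between 928 and 1002 in wt/wt mice, and the genotypes overlap in the other 6 genes.

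Tecpr1, the paralog, was measured in ki/ki mice at 1377 at the lowest, 1414 at the median and 1480 at the highest. In wt/wt mice these values were 1350, 1397.5 and 1461. The ranges overlapped over most of their length, with 1 ki/ki mouse above all wt/wt mice. The log2 difference was 0.018, and its 95% confidence interval ran from −0.032 to 0.068, a change of −2.17% to 4.80% (limma, adjusted p = 0.958, exact permutation p = 0.312). A rise of Tecpr1 in whole brain RNA above 4.80% thus lay outside the interval while Tecpr2 was at 31.2% of its wt/wt level.

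Of the LC3 subfamily, Map1lc3a ranged in ki/ki mice from 624 over a median of 676.5 to 755, and in wt/wt mice from 632 over 671.5 to 757. The log2 difference was −0.005 (95% confidence interval −0.077 to 0.067; limma, adjusted p = 0.992, exact permutation p = 0.903). The LC3 protein followed in most autophagy assays is encoded by Map1lc3b. It ranged in ki/ki mice from 1302 over 1425 to 1500, and in wt/wt mice from 1321 over 1366.5 to 1439. In ki/ki mice 2 values were above all wt/wt values and 1 was below them. The log2 difference of 0.042 was the largest of the 6 genes that were not called (95% confidence interval −0.013 to 0.096; limma, adjusted p = 0.897, exact permutation p = 0.170).

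None of the GABARAP genes was called. Gabarap ranged in ki/ki mice from 703 over a median of 729 to 794, and in wt/wt mice from 702 over 733.5 to 800. Its log2 difference was 0.006 (95% confidence interval −0.060 to 0.072; limma, adjusted p = 0.990, exact permutation p = 0.836). Gabarapl1, the gene of the 7 with the highest level per kilobase, ranged in ki/ki mice from 3052 over 3152 to 3305, and in wt/wt mice from 3114 over 3177.5 to 3271. The wt/wt mice of Gabarapl1 lay inside the ki/ki range. Its log2 difference was −0.009, with the narrowest interval of the 7 genes (−0.048 to 0.031; limma, adjusted p = 0.975, exact permutation p = 0.615). Gabarapl2 ranged in ki/ki mice from 980 over 1033.5 to 1125, and in wt/wt mice from 970 over 1055.5 to 1154. Its log2 difference was −0.021 (95% confidence interval −0.084 to 0.041; limma, adjusted p = 0.964, exact permutation p = 0.571).

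Among the 5 ATG8 genes, 2 had a higher and 3 a lower estimate in ki/ki mice, and the median log2 difference was −0.005, beside −0.001 over all tested genes. The intervals of the 6 genes that were not called stayed between a change of −5.65% (Gabarapl2) and one of 6.86% (Map1lc3b). A p that misses the threshold does not show that the genotypes were alike, but changes beyond these bounds lay outside the 95% intervals. The bounds hold for the level in whole brain RNA, and changes within single regions or cell types were not measured.

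**Figure D2:**
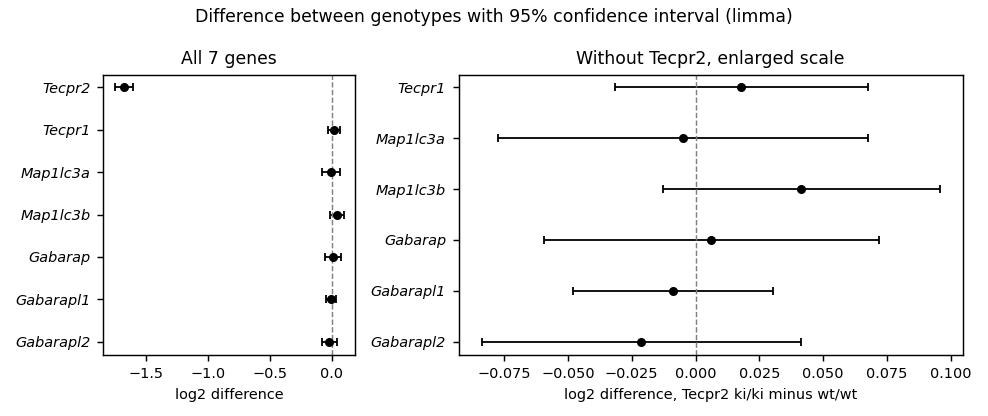
Log2 difference (x axis, Tecpr2 ki/ki minus wt/wt) of each gene with its 95% confidence interval from limma, for all 7 genes (left) and on an enlarged scale without Tecpr2 (right). Tecpr2 lies at −1.68, and the intervals of the other 6 genes include 0, which the dashed line marks.

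The spread between mice was set beside the counting noise that the depth implies. A value of Gabarapl1 stood for between 2388 and 4004 reads per mouse, one of Map1lc3a for 503 to 871 reads, and one of Tecpr2 for 230 to 1281 reads over both genotypes. Counting alone would give a coefficient of variation of 1.74% for Gabarapl1, and the wt/wt mice varied by 1.74%, while the ki/ki mice varied by 2.90% against counting noise of 1.82%. For Tecpr1, counting gave 2.62% and the wt/wt mice varied by 2.40%. For Tecpr2 in ki/ki mice, counting gave 5.91% and the mice varied by 4.70%. These values lay close to counting noise, except that of Gabarapl1 in ki/ki mice. Map1lc3a and Gabarapl2 varied more, by 6.05% and 5.60% in wt/wt mice against counting noise of 3.77% and 3.02%, and Map1lc3b varied by 4.68% in ki/ki mice against 2.72%.

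To set the genes side by side, values were divided by the length of all exons of each gene in kilobases. On this scale the wt/wt level of Gabarapl1 was 1581 ± 27.5 per kb (SD, n = 8), at percentile 99.4 of 22878 tested genes with a length. Map1lc3a followed at 577 ± 34.9 per kb, then Gabarapl2 at 455 ± 25.5 and Gabarap at 398 ± 17.1, all 3 above percentile 95. Map1lc3b had 183 ± 5.59 per kb, Tecpr1 110 ± 2.64 and Tecpr2 101 ± 2.55. Gabarapl2 and Gabarap were neighbours whose wt/wt ranges overlapped, with 417 as the lowest value of Gabarapl2 and 434 as the highest of Gabarap. Tecpr1 and Tecpr2 did not overlap but came close, at 105.7 or more against 104.9 or less.

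The length that is used changes part of this order. Divided by the longest annotated transcript, Gabarapl1 was still first with 1749 per kb, but Gabarapl2 came before Map1lc3a at 631 against 612. Gabarap had 543, Map1lc3b 332, Tecpr1 275 and Tecpr2 124 per kb. The exons of Tecpr1 add up to 12772 bases, and its longest transcript has 5106. In wt/wt mice the ratio of Tecpr1 to Tecpr2 was therefore 1.09 ± 0.036 (SD) per length of all exons and 2.22 ± 0.073 per longest transcript. In ki/ki mice it was 3.54 ± 0.15 and 7.22 ± 0.31. The difference between genotypes in the log2 ratio was 1.70 with either length, since the length cancels out, while Tecpr1 by itself differed by 0.018.

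Per length of all exons, Gabarapl1 made up 49.5% ± 0.84 (SD, n = 16) of the summed ATG8 level over all mice. Map1lc3a held 18.0% ± 0.73, Gabarapl2 14.2% ± 0.71, Gabarap 12.5% ± 0.44 and Map1lc3b 5.81% ± 0.16. By the longest transcript these shares were 45.2%, 15.8%, 16.2%, 14.1% and 8.71%. Gabarapl1 was the first of the 5 in each mouse by either length.

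The shares were close between the genotypes. Gabarapl1 held 49.4% ± 0.82 in ki/ki and 49.5% ± 0.91 in wt/wt mice, and Map1lc3a held 18.0% in both. The share of Map1lc3b was 5.90% ± 0.16 in ki/ki mice and 5.72% ± 0.095 in wt/wt mice, with overlapping ranges of 5.64 to 6.08% and 5.55 to 5.86%. The summed ATG8 level was 3183 ± 73.5 per kb in ki/ki and 3194 ± 74.6 per kb in wt/wt mice. The LC3 genes together held 23.9% ± 0.73 in ki/ki and 23.8% ± 0.89 in wt/wt mice. The log2 ratio of LC3 to GABARAP genes differed by 0.014 between the genotypes, less than its SD of 0.057 in ki/ki and 0.070 in wt/wt mice. These shares are descriptions and were given no test.

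**Figure D3:**
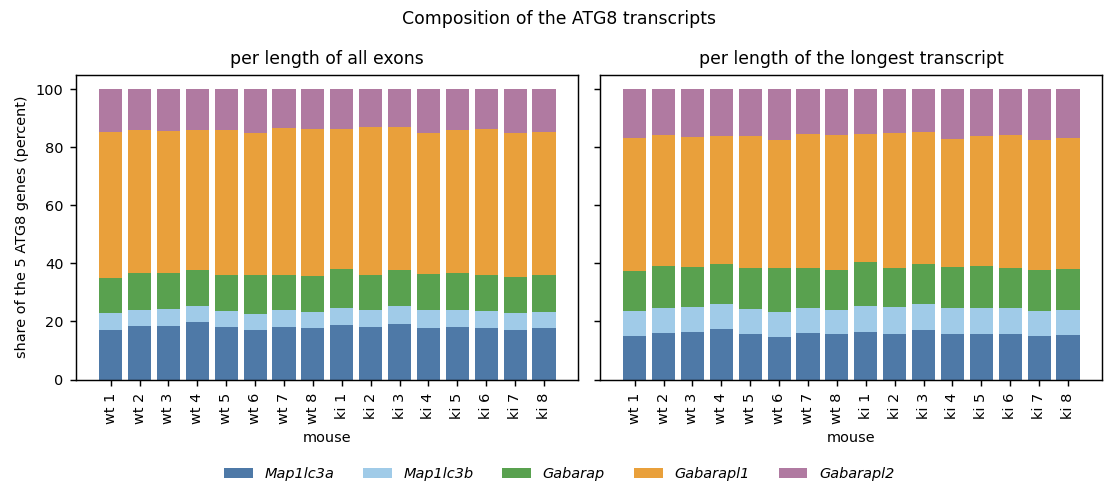
Share of each ATG8 gene in the summed ATG8 level (y axis, percent, stacked to the full sum) in each wt/wt (wt) and Tecpr2 ki/ki (ki) mouse, per length of all exons (left) and of the longest transcript (right). Gabarapl1 is the widest band in each mouse, at 49.5% on average on the left and 45.2% on the right.

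Some values are uncertain because other genes share their sequence. Of the 31-base words in Gabarapl2 transcripts, 15.2% also occurred in other genes, among them Gm3724 with 11.2% and Gm6051 with 6.94%. The mean value of Gm3724 was 136 in ki/ki and 142 in wt/wt mice (limma, adjusted p = 0.937). Map1lc3b shared 7.77% of its words, with Gm6055 (4.19%) foremost, whose mean value was 76.0 in ki/ki and 77.1 in wt/wt mice (limma, adjusted p = 0.989). Tecpr2 shared 1.10% and Tecpr1 1.08%, and Map1lc3a, Gabarap and Gabarapl1 shared none.

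Overlap in the genome concerns 3 of the genes. Tecpr2 overlaps the pseudogene Rps19-ps6 on the same strand over 438 bases, and Rps19-ps6 had a mean value of 20.1. Gabarapl1 overlaps Gm44243 on the same strand over 692 bases (mean value 25.6) and 1700101I11Rik on the opposite strand over 658 bases (mean value 7.56). Map1lc3b overlaps Zcchc14, of mean value 1217, on the opposite strand over 58 bases. It also overlaps Gm20388, for which no value was given, on the same strand over 8400 bases. The libraries kept the strand, but whether the counting used it is not given in the sources used here.

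Around Tecpr2, none of the 10 nearest tested protein-coding genes, 5 on each side, was called with limma, beside 0.133% of all tested genes. An unadjusted p under 0.05 was found for 3 of 10, beside 6.08% of all tested genes. Of the 10, 6 had a lower and 4 a higher estimate in ki/ki mice, with a median log2 difference of −0.028. The smallest p were those of Hsp90aa1 and Cinp. Hsp90aa1, the inducible cytosolic HSP90 chaperone, ends 187 kb away from Tecpr2 and had a mean value of 7314 ± 218 (SD, n = 8) in ki/ki and 7533 ± 280 in wt/wt mice. Its log2 difference was −0.042 (95% confidence interval −0.082 to −0.002; limma, adjusted p = 0.807).

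Cinp encodes a protein of the DNA replication and damage response. Of the 10 neighbours it lies closest to Tecpr2, on the other strand with 119 bases between them. It had a mean value of 258 ± 25.7 (SD, n = 8) in ki/ki and 278 ± 12.6 in wt/wt mice, a log2 difference of −0.11 (95% confidence interval −0.22 to −0.006; limma, adjusted p = 0.813). The third gene with p under 0.05 was Traf3, named here after its value was seen, with a log2 difference of −0.066 (limma, adjusted p = 0.820). Tecpr2, at −1.68, lay far outside the range of −0.22 to 0.23 of its 10 neighbours.

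**Figure D4:**
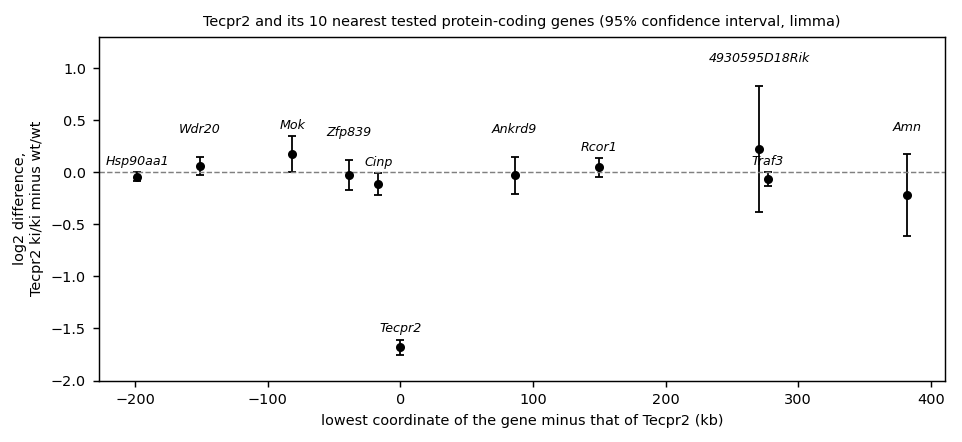
Log2 difference (y axis, Tecpr2 ki/ki minus wt/wt, with 95% confidence intervals from limma) of Tecpr2 and the 10 nearest tested protein-coding genes, placed by the distance of their lowest coordinate from that of Tecpr2 (x axis, kb, GRCm38). Tecpr2 lies at −1.68, and the neighbours lie between −0.22 and 0.23.

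The enzymes that attach ATG8 proteins to lipid and release them were taken as a list of 12 genes. It holds the proteases ATG4, the E1-like and E2-like enzymes ATG7, ATG3 and ATG10, the conjugate of ATG12 and ATG5 with ATG16L, and WIPI2, which recruits it. All 12 were tested and none was called with limma (1 of 12 with an unadjusted p under 0.05, beside 6.08% of all tested genes). Of these, 7 had a higher and 5 a lower estimate, and the median log2 difference was 0.014. Atg16l2, a paralog of Atg16l1, had the smallest p, with a mean value of 285 ± 16.6 (SD, n = 8) in ki/ki and 265 ± 15.2 in wt/wt mice and a log2 difference of 0.10 (limma, adjusted p = 0.814). Atg4c, a protease that cuts at the glycine shown above, had a mean value of 530 ± 17.1 in ki/ki and 554 ± 23.3 in wt/wt mice, a log2 difference of −0.064 (limma, adjusted p = 0.877).

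Proteins that dock on ATG8 as TECPR2 does, cargo receptors and adaptors, were taken as 23 genes. All 23 were tested and none was called with limma (1 of 23 with an unadjusted p under 0.05, beside 6.08% of all tested genes). There were 11 higher and 12 lower estimates, with a median log2 difference of −0.009. Kbtbd7, part of a ubiquitin ligase that binds GABARAP proteins, had a mean value of 566 ± 43.2 (SD, n = 8) in ki/ki and 597 ± 27.5 in wt/wt mice, a log2 difference of −0.078 (limma, adjusted p = 0.820). Retreg1, a receptor for the degradation of endoplasmic reticulum, had 490 ± 24.4 in ki/ki and 516 ± 27.8 in wt/wt mice, a log2 difference of −0.074 (limma, adjusted p = 0.850). Both ranges overlapped between the genotypes.

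Genes of proteins and complexes linked to TECPR2 other than ATG8 proteins were taken as 19 genes of the coat protein SEC24D, the SNARE VAMP8, the complexes BLOC1 and HOPS, and RAB5. Both complexes were listed with all their subunits, whether or not each subunit is itself reported to bind TECPR2. All 19 were tested and none was called with limma (2 of 19 with an unadjusted p under 0.05, beside 6.08% of all tested genes). There were 9 higher and 10 lower estimates, with a median log2 difference of −0.004. Sec24d, a subunit of the COPII coat at endoplasmic reticulum exit sites, had the smallest p of the 3 lists. Its mean value was 192 ± 11.7 (SD, n = 8) in ki/ki and 172 ± 18.0 in wt/wt mice, a log2 difference of 0.16 (95% confidence interval 0.037 to 0.29; limma, adjusted p = 0.655). Vps41, a HOPS subunit, had 1451 ± 37.2 in ki/ki and 1510 ± 43.5 in wt/wt mice, a log2 difference of −0.058 (limma, adjusted p = 0.762). The lowest ki/ki value of Sec24d was 180 and the highest wt/wt value was 203, so that the genotypes overlapped.

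**Figure D5:**
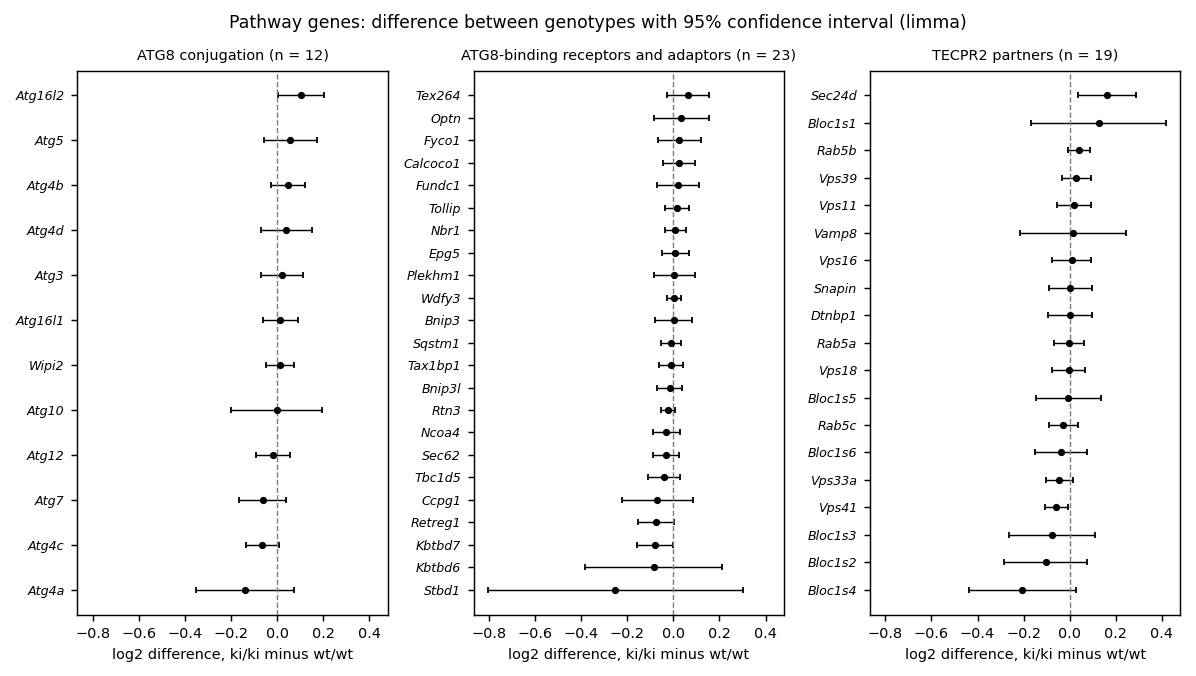
Log2 difference (x axis, Tecpr2 ki/ki minus wt/wt) with 95% confidence interval from limma for the 12 ATG8 conjugation genes, the 23 ATG8-binding receptors and adaptors and the 19 genes of proteins and complexes linked to TECPR2 (TECPR2 partners). The widest intervals belong to genes of low value, and none of these genes was called.

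Of 5 astrocyte markers 3 were called and higher in ki/ki mice, beside 0.0946% of all tested genes. These were Gfap, an intermediate filament protein, with a log2 difference of 0.58, the water channel Aqp4 with 0.14 and the glutamate transporter Slc1a2 with 0.064. The other two, Aldh1l1 (log2 difference 0.041, limma, adjusted p = 0.928) and Gja1 (−0.005, adjusted p = 0.989), did not pass. The summed values of the 5 ranged from 51907 to 53990 in ki/ki and from 48364 to 51847 in wt/wt mice, and most of each sum was Slc1a2, with a mean value of 45610 in ki/ki and 43648 in wt/wt mice. No marker of the other types was called. An unadjusted p under 0.05 (limma) was found for 2 of 5 neuron, 2 of 5 microglia and 2 of 3 choroid plexus markers, beside 6.08% of all tested genes. No oligodendrocyte, endothelial or blood marker had one. Summed neuron markers ranged from 48565 to 51049 in ki/ki and from 48716 to 52293 in wt/wt mice. Summed microglia markers ranged from 1474 to 1623 and from 1414 to 1570, oligodendrocyte markers from 38797 to 44867 and from 39079 to 44177, and endothelial markers from 1514 to 1643 and from 1551 to 1648. Summed choroid plexus markers ranged from 3995 to 4623 and from 4486 to 5103, and blood markers from 207 to 305 and from 153 to 281. All 3 choroid plexus markers had a lower estimate in ki/ki mice. Most of their sum was Ttr, with a mean value of 4086 in ki/ki and 4364 in wt/wt mice. The part of the cell types in the values of the 7 genes was not tested.

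Within genotypes, the 7 genes were compared over the 16 mice after the genotype means had been taken off, in 21 pairs, 13 of which had a positive Pearson correlation. None reached an adjusted p under 0.05. Map1lc3a and Map1lc3b came closest, with r = 0.71 (permutation p = 0.00242, adjusted 0.0508) and Spearman's rho = 0.68 (permutation p = 0.00672, adjusted 0.141). Without the 2 mice farthest from the median of Map1lc3a, r was 0.61, and it was 0.84 in the ki/ki and 0.58 in the wt/wt mice. Map1lc3b and Gabarapl1 had r = 0.66 (permutation p = 0.0135, adjusted 0.138; rho = 0.59, permutation p = 0.0259, adjusted 0.272) and r = 0.50 without the 2 mice farthest from the median of Map1lc3b. Tecpr2 and Map1lc3b had r = −0.63 (permutation p = 0.0197, adjusted 0.138) and rho = −0.54 (permutation p = 0.0447, adjusted 0.313). For this pair r was −0.63 in the ki/ki and −0.64 in the wt/wt mice. It fell to −0.28 without the 2 mice farthest from the median of Tecpr2.

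The genes whose values were most like those of each gene were sought among 11241 tested genes with a mean value of at least 100. Over the 16 mice as they are, Tecpr2 was most like Tbc1d9b, which encodes a TBC domain protein (Pearson's r = 0.97), followed by Camk4, a calcium-dependent kinase of neurons (0.83), and Nsd2, a histone methyltransferase (0.82). With the genotype means taken off, these 3 gave way to Gm28370 (0.83), Rbm48 (0.81) and Nol9 (0.80). Tecpr1 was then most like Esrrg (0.83), Sec22b (0.79) and Ppid (0.75). Map1lc3a was most like Cfl1 (0.93), Pcbp4 (0.89) and Ndrg3 (0.89), and Map1lc3b was most like Pianp (0.94), Pkm (0.94) and Rab33b (0.91). Gabarap was most like Lrrc58 (0.84), Thoc5 (0.82) and Swi5 (0.80), Gabarapl1 most like Ndufb10 (0.89), Usmg5 (0.85) and St6galnac3 (0.83), and Gabarapl2 most like Cep85 (0.84), Pgm2l1 (0.84) and Nova1 (0.81). None of these lists of 3 held another of the 7 genes. The mice share library and depth across genes, and each is the highest of 11241 correlations, so that they are descriptions with no p.

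The promoters were searched for CACGTG, the E-box at the core of the element that TFEB, a regulator of lysosomal and autophagy genes, binds. The word reads the same on both strands. RefSeq promoters of 250 bases before to 50 bases after the start, on GRCm38, were at hand for 6 of the 7 genes, and the window of Map1lc3a was not analysed here. None of the 6 held the word, which occurred in 7.24% of 27025 promoters of the same length. This says only that these letters are not in these windows.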

How the data were processed

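Stranded total RNA libraries were made by the authors from whole brains after ribosomal RNA depletion. Per the study's methods, reads were trimmed (Trim Galore 0.6.10, cutadapt 3.4), aligned to GRCm39 with STAR 2.7.10b, counted per gene with summarizeOverlaps, and tested with DESeq2 1.40.2. What they deposited for each mouse is a normalized score of every gene on a linear scale, given without decimals. How it was normalized is not given in the sources used here. They are not counts, so no count test was run.

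Of 55404 genes, 52022 had a symbol. A gene was tested if its 16 values added up to more than 16 and if 4 or more mice of either genotype had a value above 5. The test was limma 3.58.1 under R 4.3.3 on log2(value + 1), with a variance trend, robust moderation, genotype as the only term, Benjamini-Hochberg adjustment over all 23244 tested genes and a threshold of 0.1. Exact permutation tests, two-sided, and correlations (100000 resamples within genotypes) used Python 3.11.15 with scipy 1.17.1. The steps were tested on simulated data. Reads per mouse were estimated from the whole numbers that dividing and rounding skip or repeat. In all tests the mouse was the unit of replication, and the p-values rest on these 16 mice.

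Positions, lengths and transcripts are from the GENCODE annotation of GRCm38, not the build of the reads, and promoters are from RefSeq. The genes and lists were chosen with earlier results of these data known. By rule, the 7 genes, the genes called in a pathway list or among the neighbours of Tecpr2 or else the 2 with the smallest p, and for each gene the 3 most like it with the genotype means taken off (for Tecpr2 also with them) were named. The astrocyte markers, Ttr and Traf3 were named after their values had been seen. Protein sequences were not used here.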

Additional observations from a re-analysis of the deposited data

Results flagged for a closer look

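For Gabarap, the wt/wt mouse 6 had a value of 800, the highest of its group, and its gap to the next mouse divided by the range of the group was 0.531, above Dixon's 95% critical value for 8 mice. The same mouse was also the highest wt/wt mouse of Gabarapl2. Both genotypes of all 7 genes and of the share of each ATG8 gene were examined in this way. Chance alone gives about 1 such value in 20 groups.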

How the results depend on the processing

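Over 25 alternative settings, 1 of the 7 genes, Tecpr2, was called each time, with a log2 difference between −1.69 and −1.66 and an adjusted p of at most 1.56e-14 (limma), and no gene of the 3 lists or the neighbours was called. Leaving out 1 mouse at a time moved the log2 difference of Map1lc3a between −0.027 and 0.017 and that of Gabarap between −0.0092 and 0.024, so that both changed sign, and the count of all called genes between 25 and 40. Of all tested genes, 20 were called without the filter on low values, 16 without variance trend or robust estimate and 55 with the first principal component of the residuals added to the model, against 31. By the longest transcript, the ATG8 shares were 15.8% for Map1lc3a, 8.71% for Map1lc3b, 14.1% for Gabarap, 45.2% for Gabarapl1 and 16.2% for Gabarapl2. These shares differ from those per length of all exons only in the length used as divisor. The cause of the other changes was not tested.

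With replicate number as a block, 46 of all tested genes were called, Tecpr2 kept its log2 difference of −1.68, and no call among the 7 genes or the lists changed. The labels do not say whether same-numbered mice were paired. Deviations of same-numbered mice correlated above 0.1 in 1 of 8 pairs (range −0.050 to 0.152), and 2 of 8 mice correlated best with their own number. These values show no strong pairing but cannot exclude a weak one. With 9.23 to 15.39 megareads per mouse, counting noise of the ATG8 genes and Tecpr1 in wt/wt mice was 1.74% (Gabarapl1) to 3.77% (Map1lc3a).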
